A study of Bos taurus with 6 samples.

Results

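The genes of the agouti and melanocortin pathway were examined in the longissimus dorsi, the long back muscle that gives the rib eye, of cattle of 2 breeds, Wagyu (Japanese black) and Chinese Red Steppes. The set held 8 of the 21972 genes in the deposited expression table: ASIP, AGRP, POMC, MC1R, MC4R, MC5R, ATRN and MGRN1, each found by its gene name. ASIP was selected on its FPKM, because the table lists it at 0 in the Wagyu libraries, so its difference between the breeds was the ground of the choice and is described here without a test. The other 7 genes were added for their roles, as rival ligands, receptors and cofactors.

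Each breed was represented by 3 males aged 28 months, with 1 poly(A) RNA-seq library per animal. The Wagyu libraries were WC616, WC719 and WC921, and the Chinese Red Steppes libraries were RC4, RC5 and RC6, and values of single animals are given in these orders. Animals of a breed were sons of 1 bull and came from 1 farm, with similar corn and hay diets in both herds, so breed, sire and farm cannot be told apart in any comparison. The study was designed around the difference in marbling between the breeds, which the paper scored higher in the Wagyu animals.

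Melanocortins are short peptide hormones cut from the POMC precursor that raise cyclic AMP in a cell through a family of G protein-coupled receptors. Agouti signalling protein (ASIP) and agouti-related protein (AGRP) are secreted antagonists that compete with those peptides for the receptors, ASIP mainly at MC1R in the pigment cells of skin and AGRP at MC4R in the hypothalamus. In cattle ASIP transcripts are also known outside skin, including in fat and muscle, and in mice ectopic agouti gives a yellow coat with obesity.

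Between 15438095 and 16197141 reads per library were assigned to genes, so depth was nearly even. RC6 stood apart: the chi-square per degree of freedom between its gene counts and those of another library was 142 to 181, against 26.9 to 72.1 for pairs without it. No 2 libraries agreed within sampling noise. The tissue label held, with 8 of 8 skeletal muscle markers present at a summed 77532 to 81540 FPKM in Wagyu and 82574 to 92581 FPKM in Chinese Red Steppes. FPKM is the number of reads per kilobase of gene length, scaled to the reads assigned in the library, which makes levels comparable between genes. Read numbers given here are the smallest whole numbers that fit a gene's FPKM, and for genes with a few reads, such as AGRP and MC1R, the true numbers could be multiples of them. Of the 9990 genes with a mean of at least 1 FPKM, limma called 2 genes between the breeds at an adjusted p under 0.05, which is 0.0200% of those tested. They were ASIP itself and MRVI1, a gene outside the pathway that is named here after its value was seen. ASIP was also past DESeq2 and not past edgeR, and as this contrast chose it nothing is read from those calls. At an unadjusted p under 0.05 the share was 14.5%, and the FPKM ranges of the breeds did not overlap for 20.6% of genes.

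The 8 genes fell into 3 levels. ASIP in Chinese Red Steppes, POMC and MGRN1 lay above 10 FPKM, ATRN, MC1R and AGRP lay under 1 FPKM, and MC4R and MC5R were at 0 in all 6 libraries. Hence 3 of the 8 genes reached the mean of 1 FPKM that the limma test required, and ASIP did so through Chinese Red Steppes alone. Apart from ASIP, 0 of the 2 pathway genes tested by limma passed, and 0 of those 2 had breeds that did not overlap.

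**Figure D1:**
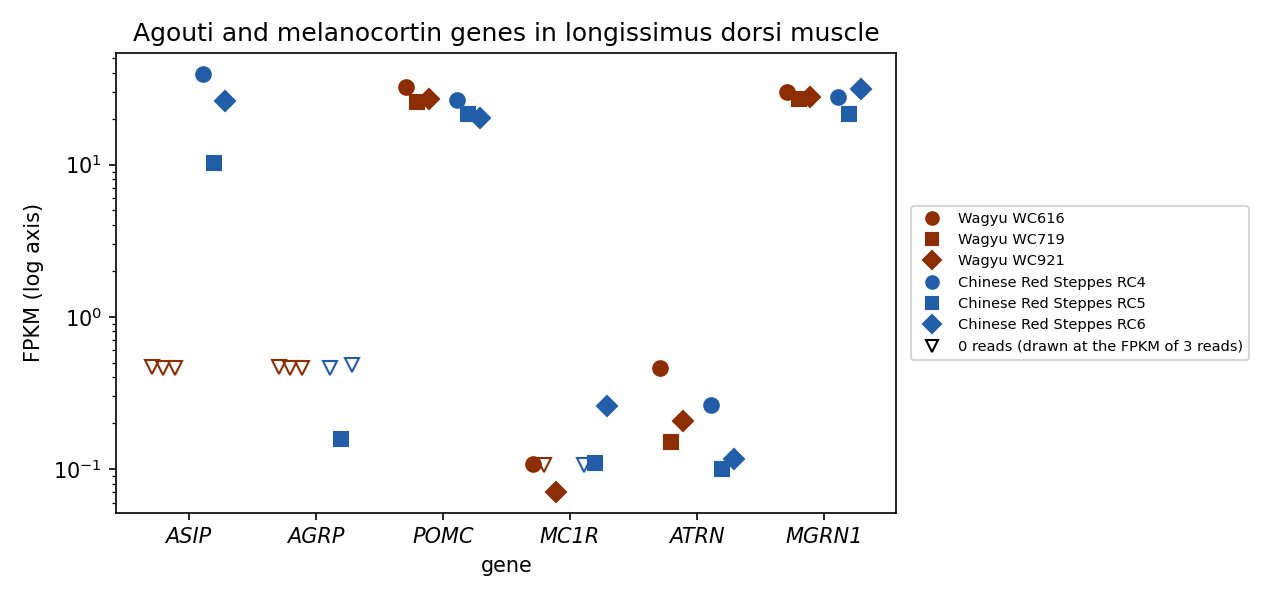
FPKM of the 6 pathway genes with at least 1 read, on a log axis, with 1 point per library (Wagyu in brown on the left, Chinese Red Steppes in blue on the right of each gene). Open triangles mark libraries with 0 reads and are drawn at the FPKM that 3 reads would give. ASIP is without reads in the 3 Wagyu libraries and lies between 10.3 and 39.5 FPKM in Chinese Red Steppes, whereas POMC and MGRN1 overlap between the breeds. MC4R and MC5R, at 0 in all 6 libraries, are not drawn.

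Among the ligands and antagonists, ASIP (ENSBTAG00000034077) was the gene that set the pattern. In Wagyu it had 0 reads in WC616, 0 in WC719 and 0 in WC921. In Chinese Red Steppes it had 255 reads in RC4, 65 in RC5 and 163 in RC6. These counts correspond to 39.5 FPKM in RC4, 10.3 in RC5 and 26.3 in RC6, with a mean of 25.4 ± 14.6 FPKM (SD, n = 3). No library of one breed came near any library of the other.

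The number of reads limits how low ASIP in Wagyu can be placed. A count of 0 allows up to 3 reads per library, which at the gene length of 402 bases behind the table equals 0.461 to 0.471 FPKM in the Wagyu libraries. Set against that floor, ASIP was at least 54.6-fold lower in Wagyu than the Chinese Red Steppes mean. The bound was 22.1-fold against RC5 alone, 56.5-fold against RC6 alone and 85.0-fold against RC4 alone. It was 53.6-fold without RC6, 39.3-fold without RC4 and 70.8-fold without RC5. The floor covers counting error only. PCR copies of a molecule, if they were counted as separate reads, are not covered, and neither is the spread between the Chinese Red Steppes animals.

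Within Chinese Red Steppes ASIP was also the most uneven of the well expressed pathway genes. RC4 had 3.84 times the ASIP level of RC5 and 1.50 times that of RC6, and RC6 had 2.55 times that of RC5. Over the same libraries POMC spanned 20.1 to 26.7 FPKM and MGRN1 21.5 to 31.6 FPKM. Of the genes above 0 in each library, 9.91% were higher than ASIP in RC4, 26.6% in RC5 and 13.9% in RC6, so in muscle of this breed ASIP stood in the upper part of the transcriptome by FPKM.

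The selection on a complete absence in 1 breed can be placed among all genes by a count of genes with the same pattern. At 10 or more reads in each library of one breed and 0 in each of the other, ASIP was the only gene of the 16770 with reads. At the lower limit of 5 reads there were 2 genes read in Wagyu only and 1 in Chinese Red Steppes only, which was ASIP. The 2 were MYH15, a myosin heavy chain gene with 10, 13 and 7 reads in the Wagyu animals and 0 in Chinese Red Steppes, and ENSBTAG00000002290 with 40, 8 and 5 reads and likewise 0. At 1 read or more the pattern was common in both directions, with 35 genes read in Wagyu only and 37 in Chinese Red Steppes only. The values nearest to ASIP on the Chinese Red Steppes side were 4, 4 and 3 reads in the Chinese Red Steppes animals for ENSBTAG00000038715, against 0 in each Wagyu library. These counts use the values by which ASIP was chosen and are given as a description.

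**Figure D2:**
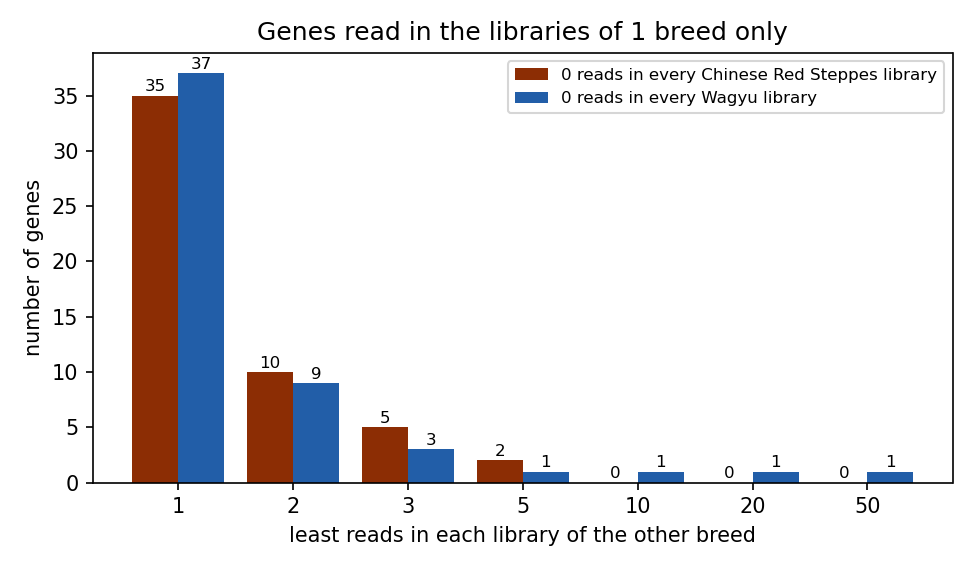
Number of genes with 0 reads in every library of one breed (vertical axis), for rising minimum reads in each library of the other breed (horizontal axis). Brown bars are genes read in Wagyu only and blue bars genes read in Chinese Red Steppes only. From a minimum of 10 reads upward, 1 gene, ASIP, remains on the Chinese Red Steppes side and 0 on the Wagyu side.

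AGRP, the antagonist of the hypothalamic receptor, had 0 reads in WC616, WC719, WC921, RC4 and RC6 and 1 read in RC5, which is 0.157 FPKM. Since 3 reads of this gene would give 0.457 to 0.480 FPKM, its level was at or under the detection floor in both breeds. The 2 antagonists therefore differed in their level in Chinese Red Steppes muscle, where ASIP had 483 reads in all and AGRP 1.

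POMC codes for the precursor of the melanocortin agonists (alpha-MSH, beta-MSH, gamma-MSH and ACTH). Its transcript was at 32.5, 25.7 and 27.0 FPKM in the Wagyu animals, against 26.7, 21.4 and 20.1 FPKM in the Chinese Red Steppes animals. The levels of the breeds overlapped, because RC4 lay between WC719 and WC921. POMC averaged 28.4 ± 3.57 FPKM in Wagyu and 22.7 ± 3.50 FPKM in Chinese Red Steppes (n = 3 each, SD). Its log2 fold change, on the log2(FPKM + 1) scale, which understates changes of low genes, was 0.31 with an SE of 0.16. The difference did not pass the limma test (adjusted p = 0.414), and its 95% interval ran from -0.06 to 0.69. On read counts the adjusted p was 0.508 with edgeR and 0.653 with DESeq2. Of the genes above 0, 11.7 to 16.9% were higher than POMC over the 6 libraries, which placed the precursor's RNA near the rank of ASIP in RC4 and RC6.

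A POMC transcript yields active peptides only where prohormone convertases cut the precursor. PCSK2, the convertase that releases alpha-MSH, was at 0 in all 6 libraries. PCSK1, which releases ACTH, had at most 1 read in any library. CPE, the carboxypeptidase that trims the cut ends, was low, at 0.339, 0.436 and 0.146 FPKM in the Wagyu animals, against 0.440, 0.706 and 0.305 FPKM in the Chinese Red Steppes animals. PAM, which amidates the C-terminus of alpha-MSH, was at a mean of 7.49 FPKM in Wagyu and 8.17 FPKM in Chinese Red Steppes, a difference that did not pass limma (adjusted p = 0.824). PRCP, a carboxypeptidase that inactivates alpha-MSH in mice, was at 2.41 FPKM in Wagyu and 2.25 FPKM in Chinese Red Steppes (limma, adjusted p = 0.918).

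Among the receptors, MC1R, the receptor of pigment cells at which ASIP acts, was the sole member with reads. It had 3, 0 and 2 reads in the Wagyu animals, and 0, 3 and 7 reads in the Chinese Red Steppes animals. The highest value was 0.259 FPKM in RC6, and 1 library of each breed had none. The breeds overlapped, with 5 reads in Wagyu and 10 reads in Chinese Red Steppes in all, and the difference in FPKM did not pass a two-sided exact permutation test (p = 0.5, where 3 against 3 libraries cannot go below 0.1). With this number of animals the test could not pass, and counts of 0 to 7 reads leave the MC1R difference undetermined. RC4, which had the highest ASIP level, was among the libraries without an MC1R read.

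MC4R, the receptor of energy balance in the hypothalamus, and MC5R, a receptor of exocrine glands that is also known from muscle and fat of mice, had no read in any of the 6 libraries. MC2R, the ACTH receptor, and MC3R were likewise at 0. MRAP, the accessory protein that brings MC2R to the cell surface, had 2, 1 and 0 reads in the Wagyu animals and 0, 1 and 0 reads in the Chinese Red Steppes animals. MRAP2, its relative that acts on MC4R, had 4, 15 and 14 reads in Wagyu and 15, 4 and 0 reads in Chinese Red Steppes. POMC, and in Chinese Red Steppes ASIP, thus lay above 10 FPKM in muscles in which the 5 melanocortin receptors were at or near the detection floor.

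Among the cofactors, ATRN codes for attractin, a membrane protein that binds ASIP and is needed for its action on pigment in mice. It was at 0.463, 0.151 and 0.207 FPKM in the Wagyu animals, against 0.264, 0.0992 and 0.115 FPKM in the Chinese Red Steppes animals. These values rest on 33, 11 and 15 reads in Wagyu and 19, 7 and 8 reads in Chinese Red Steppes. The breeds overlapped and the two-sided exact permutation test gave p = 0.5. With counts as low as these edgeR gave an adjusted p of 0.591 and DESeq2 of 0.717. ATRNL1, the relative of attractin, had 5, 0 and 0 reads in the Wagyu animals and 0, 0 and 2 reads in the Chinese Red Steppes animals.

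MGRN1, the ubiquitin ligase mahogunin, whose loss in mice darkens the agouti coat, was the cofactor with a high level. It was at 30.0, 27.0 and 27.8 FPKM in the Wagyu animals, against 27.7, 21.5 and 31.6 FPKM in the Chinese Red Steppes animals. The 3 Wagyu libraries lay inside the range of Chinese Red Steppes. Means were 28.3 ± 1.55 FPKM in Wagyu and 26.9 ± 5.10 FPKM in Chinese Red Steppes (SD, n = 3 each), with a log2 fold change of 0.09, an SE of 0.17 and a 95% interval of -0.30 to 0.47 (limma, adjusted p = 0.842). The sign turned without RC5, to -0.06.

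SDC3, a heparan sulphate proteoglycan that binds AGRP at the cell surface in mice, was the other cofactor above 1 FPKM. It was at 2.94, 4.54 and 4.31 FPKM in the Wagyu animals, against 2.74, 1.67 and 1.87 FPKM in the Chinese Red Steppes animals. The breeds did not overlap, which was also so for 20.6% of all genes tested. The lowest Wagyu library lay close to the highest Chinese Red Steppes library. The log2 fold change of 0.67 (SE 0.21) did not pass limma (adjusted p = 0.268), edgeR (0.267) or DESeq2 (0.194). Over the 12 further genes of melanocortin processing and reception, 9 had reads, 3 could be tested and 0 passed. Their median log2 fold change was 0.06, against 0.03 over all genes tested.

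Melanocortin receptors signal through Gs, adenylyl cyclase and protein kinase A, and genes of this route were followed as the downstream side of the pathway. All 21 were present and 16 reached the limma filter, of which 0 passed. Of the 16, 13 had a log2 fold change above 0 and 3 below, against 5362 and 4628 of all genes tested, with a median of 0.28 against 0.03. At an unadjusted p under 0.05, 2 of the 16 were higher in Wagyu and 0 lower, beside 14.5% of all genes in either direction, so the share was no larger than the background. GNAS, the Gs alpha subunit, was among the abundant transcripts at 264 to 330 FPKM, and ADCY2, an adenylyl cyclase, was at 106 to 135 FPKM, both with overlapping breeds.

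PRKACB, which codes for the beta catalytic subunit of protein kinase A, differed more between the breeds than any other of these genes. It was at 6.41, 9.30 and 6.67 FPKM in the Wagyu animals, against 1.75, 1.63 and 2.33 FPKM in the Chinese Red Steppes animals. Every Wagyu library was well above every Chinese Red Steppes library. The means were 7.46 ± 1.60 FPKM in Wagyu and 1.90 ± 0.373 FPKM in Chinese Red Steppes (n = 3 each, SD). That is 3.93 times the Chinese Red Steppes level, with a log2 fold change of 1.54 (SE 0.19). The limma test did not pass (adjusted p = 0.0681), while the tests on read counts did, with an adjusted p of 0.0320 by edgeR and 1.91e-11 by DESeq2. PRKACB was 1 of 8 genes past edgeR, which called 0.0685% of genes, and 1 of 238 past DESeq2, which called 2.00%. Over 13 alternatives its adjusted p ran from 1.91e-11 to 0.271 (limma, edgeR and DESeq2).

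The other catalytic, regulatory and cyclase genes moved less. ADCY5, an adenylyl cyclase, averaged 1.48 ± 0.122 FPKM in Wagyu and 0.827 ± 0.233 FPKM in Chinese Red Steppes (SD, n = 3 each), with a log2 fold change of 0.44 and an SE of 0.17 (limma, adjusted p = 0.310). PRKAR2A, a regulatory subunit of protein kinase A, was at 75.1, 93.9 and 101 FPKM in the Wagyu animals, against 75.5, 66.2 and 30.9 FPKM in the Chinese Red Steppes animals. Its log2 fold change of 0.72 (SE 0.32) did not pass limma (adjusted p = 0.354), and RC6, the library that stood apart, gave the lowest value. Without RC6 the log2 fold change was 0.33.

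**Figure D3:**
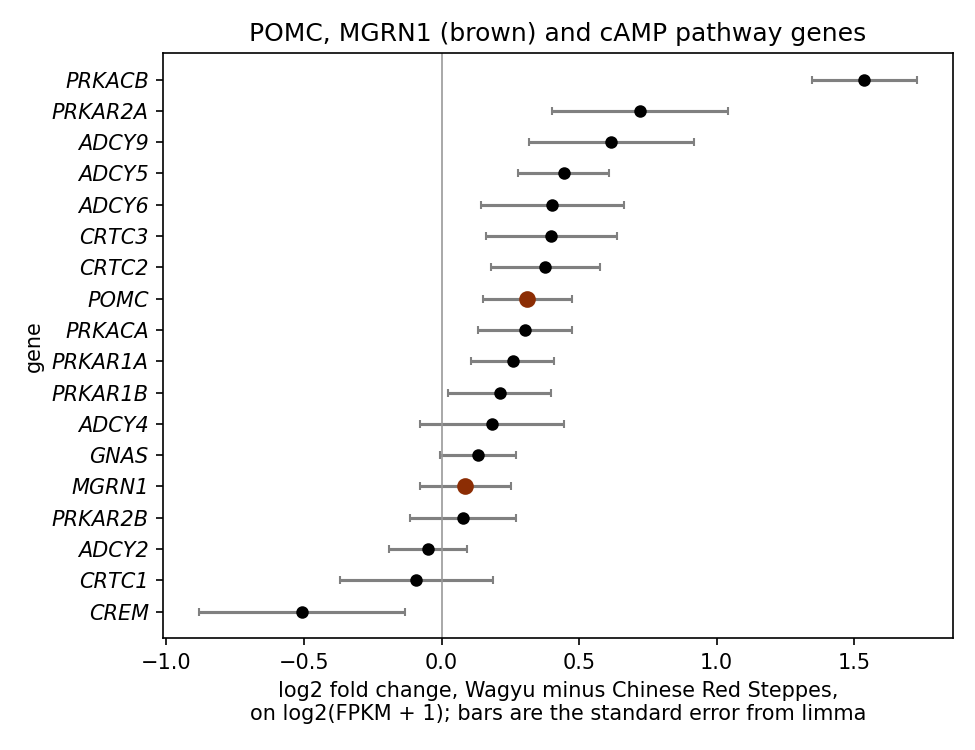
Log2 fold change (horizontal axis, Wagyu minus Chinese Red Steppes on log2(FPKM + 1), bars the SE from limma) of the 16 tested genes of the cyclic AMP route (black) and of POMC and MGRN1 (brown). PRKACB lies farthest out at 1.54, POMC is at 0.31 and MGRN1 at 0.09. None of the 18 genes passed limma.

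The chromosomal surroundings of ASIP were read as well, because adjacent genes share a region of DNA and were not part of the choice. In the order of RefSeq (assembly ARS-UCD2.0, used for gene order only), the nearest protein-coding genes were CHMP4B, RALY and EIF2S2 on one side and AHCY, ITCH and DYNLRB1 on the other. All 6 were expressed in each of the 6 libraries, and 0 of 6 passed limma (adjusted p from 0.231 to 0.918).

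None of the 6 neighbours was at or near 0 in a Wagyu library. EIF2S2, a subunit of translation initiation factor 2, had a mean of 58.6 FPKM in Wagyu and 62.4 FPKM in Chinese Red Steppes (log2 fold change -0.09, SE 0.13). AHCY, adenosylhomocysteinase, had 98.7 FPKM in Wagyu and 93.5 FPKM in Chinese Red Steppes (log2 fold change 0.08, SE 0.17), and its sign turned under quantile normalization and without WC921 or RC6. RALY, an RNA-binding protein, had 135 FPKM in Wagyu and 127 FPKM in Chinese Red Steppes (log2 fold change 0.10, SE 0.14).

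CHMP4B, a subunit of the ESCRT-III membrane-scission complex, was the one neighbour of 6 whose breeds did not overlap, where 20.6% of all genes tested had no overlap. It was at 85.6, 82.3 and 95.6 FPKM in the Wagyu animals, against 65.4, 66.7 and 57.1 FPKM in the Chinese Red Steppes animals. Its log2 fold change was 0.47 (SE 0.13), opposite in sign to ASIP, and did not pass limma (adjusted p = 0.231). RefSeq also lists an unnamed gene, LOC112449441, that overlaps ASIP on that assembly. The sources used here do not say whether reads were counted by strand, and reads of ASIP and of an overlapping gene could not be separated.

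**Figure D4:**
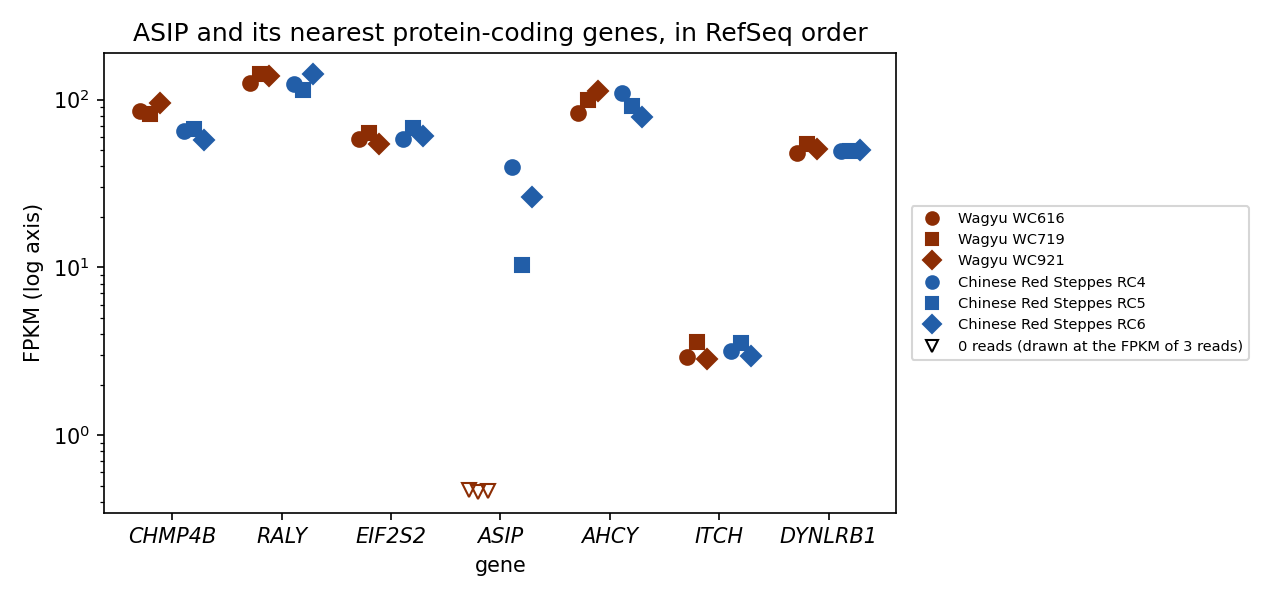
FPKM (log axis) of ASIP and its 3 nearest protein-coding genes on each side, in RefSeq order, with 1 point per library (Wagyu in brown on the left, Chinese Red Steppes in blue on the right of each gene). Open triangles are libraries with 0 reads, drawn at the FPKM of 3 reads. The 6 neighbours are read in all 6 libraries, whereas ASIP has reads in the 3 Chinese Red Steppes libraries alone.

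Since the samples were whole muscle, markers of other cell types were read beside ASIP. Fewer cells of a type and less RNA per cell cannot be told apart in such samples. Of the 12 melanocyte markers 10 had reads, but TYR and DCT, the defining enzymes of pigment synthesis, were at 0 in all 6 libraries. The summed level of the list was 7.16 to 11.6 FPKM in Wagyu and 5.98 to 7.98 FPKM in Chinese Red Steppes, most of it from MITF at 4.54 to 8.96 FPKM, while TYRP1, the next enzyme of the list, was at 0.282 to 1.21 FPKM. Of 6 keratinocyte markers, KRT1, KRT5, KRT14 and DSG3 were at 0 in all 6 libraries, and the summed level was 3.98 to 5.34 FPKM in Wagyu and 4.62 to 5.11 FPKM in Chinese Red Steppes. The other keratinocyte markers had reads in every library. KRT10 was at 1.20 to 2.48 FPKM with its highest value in RC5, and TP63 at 2.17 to 3.87 FPKM with its highest value in RC4. The part of skin cells in the ASIP level was not tested.

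Fat cells lie within muscle and were the other source of interest, given the marbling of the breeds. All 10 fat cell markers had reads, and their summed level was 125 to 128 FPKM in Wagyu and 126 to 166 FPKM in Chinese Red Steppes, with 0 of 7 tested past limma. ADIPOQ, the adipocyte hormone adiponectin, was at 1.12, 1.59 and 0.175 FPKM in the Wagyu animals, against 0.201, 1.05 and 0.0783 FPKM in the Chinese Red Steppes animals. CIDEC, a lipid droplet protein of fat cells, was at 1.12, 1.69 and 1.20 FPKM in Wagyu and 0.1002, 1.07 and 0.0521 FPKM in Chinese Red Steppes. The breeds did not overlap for CIDEC, which was also so for 20.6% of genes averaging at least 1 FPKM. The CIDEC difference did not pass edgeR (adjusted p = 0.391) or DESeq2 (0.389). ADIPOQ and CIDEC averaged under 1 FPKM and so were not among the 7 markers tested by limma. FABP4, the fatty acid carrier of fat cells and of capillary endothelium, was at 4.64, 5.14 and 1.49 FPKM in Wagyu and 0.996, 7.23 and 10.1 FPKM in the Chinese Red Steppes animals. PLIN4, a lipid droplet coat protein, was at 35.4, 35.1 and 45.4 FPKM in Wagyu and 59.4, 46.2 and 43.4 FPKM in Chinese Red Steppes. AQP7, a glycerol channel, was at 69.6, 67.0 and 59.2 FPKM in Wagyu and 57.3, 53.4 and 93.5 FPKM in Chinese Red Steppes. PLIN4 and AQP7 made up most of the summed level, so the sum mainly follows these 2 genes and says little of the other markers. The markers had no common order within Chinese Red Steppes. ADIPOQ, PLIN1 and CIDEC were highest in RC5, which had the lowest ASIP. PPARG and AQP7 were lowest there, and PLIN4, FABP4, CIDEA and LIPE lay between. LEP had 1 read in RC4, 1 in RC5 and 0 in RC6, too few to give an order. These 3 libraries are too few to test a relation within the breed, and the part of fat cells in the ASIP level was not tested.

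Of the Schwann cell markers, 2 of 2 tested had an unadjusted p under 0.05 by limma, where 14.5% of all genes did, and 0 of 2 passed after adjustment. MBP, myelin basic protein, was at 12.4, 8.49 and 7.90 FPKM in the Wagyu animals, against 21.1, 19.0 and 17.6 FPKM in the Chinese Red Steppes animals. The breeds did not overlap for MBP, which was also so for 20.6% of all genes tested. Its log2 fold change of -0.96 (SE 0.19) failed limma (adjusted p = 0.156) and passed DESeq2 (adjusted p = 0.00785). S100B, which is also made by other cells, ran the other way, with a log2 fold change of 0.87 and an SE of 0.22 (adjusted p = 0.202 by limma and 0.0479 by DESeq2). Both markers had reads, and their summed level was 43.0 to 52.8 FPKM in Wagyu and 35.6 to 48.4 FPKM in Chinese Red Steppes. Fibroblast markers summed to 78.2 to 136 FPKM in Wagyu and 48.2 to 112 FPKM in Chinese Red Steppes, endothelial markers to 51.9 to 74.6 FPKM in Wagyu and 42.9 to 63.9 FPKM in Chinese Red Steppes, and macrophage and T cell markers to 3.09 to 5.95 FPKM in Wagyu and 2.36 to 6.30 FPKM in Chinese Red Steppes. In these 3 lists 0 of the 5, 4 and 3 genes tested passed limma. The part of these cells in the ASIP pattern was not tested.

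**Figure D5:**
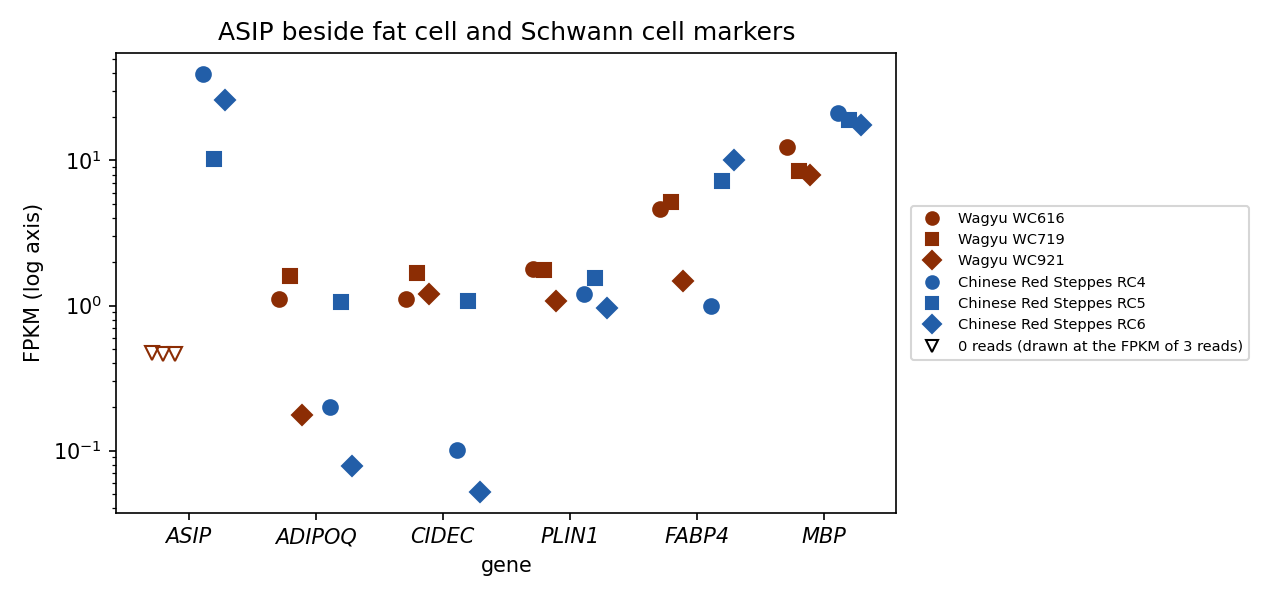
FPKM (log axis) of ASIP, of the fat cell markers ADIPOQ, CIDEC, PLIN1 and FABP4 and of the Schwann cell marker MBP, with 1 point per library (Wagyu in brown on the left, Chinese Red Steppes in blue on the right of each gene). Open triangles are libraries with 0 reads, drawn at the FPKM of 3 reads. All 5 markers have reads in both breeds. Within Chinese Red Steppes, ADIPOQ, CIDEC and PLIN1 fall in the order RC5, RC4, RC6 from high to low. FABP4 differs from them, with its highest value in RC6 and its lowest in RC4. PLIN4, AQP7 and the other fat cell markers are not drawn. S100B, the Schwann cell marker that was higher in Wagyu, is not drawn either.

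The genes whose levels over the 6 libraries were most like those of ASIP were taken by Pearson's r on log2(FPKM + 1), among genes with a mean of at least 1 FPKM. ANKH, a membrane transporter of pyrophosphate and ATP that restrains mineralization, came first with r = 0.995. It was at 4.06, 4.44 and 4.29 FPKM in the Wagyu animals, against 15.9, 9.99 and 12.1 FPKM in the Chinese Red Steppes animals, so it shared the order RC4, RC6, RC5 within Chinese Red Steppes but was expressed in Wagyu. The next were SNORD29, a small nucleolar RNA (r = 0.991), the unnamed ENSBTAG00000031483 (r = 0.985), SCO1, a mitochondrial copper chaperone (r = 0.976), and LOH12CR1 (r = 0.974). SNORD29 was at 1.88, 1.84 and 1.85 FPKM in the Wagyu animals, against 5.58, 4.75 and 5.80 FPKM in the Chinese Red Steppes animals. For so short a gene these values rest on a few reads, so its place in this order is uncertain. All 5 had reads in Wagyu, at 0.337 to 0.745 of their Chinese Red Steppes mean. The 6 points fall into the 2 breeds, and ASIP was chosen for this contrast, so these r values describe likeness and carry no test.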

How the data were processed

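Poly(A) RNA of 6 muscle samples was sequenced as 100-nt paired-end reads by the authors. The deposited FPKM of 21972 genes and, for 205 genes, deposited read counts were used. These 205 genes are the submitters' list of genes that differ between the breeds, cut by fold change and FDR. The submitters' processing notes name HISAT2 and UMD 3.1, whereas the methods describe TopHat and Bowtie. For strand and for shared reads the sources used here give no setting. The authors' comparison columns (breed means, fold change, FDR and direction) were not used.

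Whole reads were recovered from the FPKM as the smallest whole numbers in the given ratios (relative tolerance 1e-09). All 16770 genes above 0 gave whole reads, and 203 of the 205 deposited counts matched. The match could be checked on the submitters' list alone. For genes with few reads the recovered length and reads could be a fraction of the true ones.

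Breeds were compared with limma 3.58.1 (R 4.3.3) on log2(FPKM + 1) for genes averaging at least 1 FPKM, with Benjamini-Hochberg adjustment, and below that with exact permutation tests (scipy 1.17.1). Alternatives were a pseudocount of 0.1, no filter, a minimum of 5 FPKM, quantile and equal-sum scaling, edgeR 4.0.16, DESeq2 1.42.0 and leaving out each library. The scripts were tested on simulated data.

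Members and gene lists were chosen with earlier results of these data known. The text names all 8 members, every gene past the test or up to 3 by adjusted p of each pathway list, the 5 genes most like ASIP and genes read in 1 breed only. Further genes were named after their values were seen. 2 marker genes are left out and not reported here.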

Additional observations from a re-analysis of the deposited data

How the results depend on the processing

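Of the 7 members other than ASIP, 0 passed in any of the alternatives, in which mainly POMC and MGRN1 could be tested. PRKACB, downstream of the receptors, passed edgeR, edgeR without its filter and DESeq2. The count of genes past limma, 2 in all, was 1 with a pseudocount of 0.1, 0 without the filter, 0 at a minimum of 5 FPKM and 5 with equal sums per library. It was 8 with edgeR, 32 with edgeR without its filter and 238 with DESeq2, and 0 to 3 when 1 library was left out. It was 0 without WC616, WC719, WC921 or RC6, 1 without RC5 and 3 without RC4. At an unadjusted p under 0.05, 863 genes were higher and 586 lower in Wagyu by limma, against 688 and 749 with quantile normalization, 1026 and 453 with equal sums, and 816 and 828 with edgeR. Signs of small log2 fold changes turned under quantile normalization for AHCY (-0.0186) and DYNLRB1 (-0.0511). When 1 library was left out, the log2 fold change ran from -0.0625 without RC5 to 0.206 for MGRN1, from -0.107 without WC616 to 0.196 for PRCP (-0.0419 without RC6), from -0.0353 without RC6 to 0.199 for AHCY (-0.0196 without WC921), and from -0.127 to 0.00776 without RC5 for ITCH (0.00578 without WC921). The cause was not tested. POMC kept a positive log2 fold change in 14 alternatives (0.21 to 0.43). No paired analysis was possible because the animals of the 2 breeds were not matched in pairs. With 3 animals per breed, genes under 1 FPKM could not pass an exact test, and counts of a few reads do not separate a low level from none.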

Other observations

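At 3 or more reads in each library, 5 genes were read in Wagyu only and 3 in Chinese Red Steppes only. BRINP3 had 5, 4 and 3 reads in WC616, WC719 and WC921, and CBL, a ubiquitin ligase, had 5, 3 and 10 reads, both with 0 reads in each Chinese Red Steppes library. CREM, a cyclic AMP response gene, was at 3.87, 7.71 and 6.44 FPKM in Wagyu and 5.38, 7.43 and 15.8 FPKM in Chinese Red Steppes, with the highest value in the library that stood apart (limma, log2 fold change -0.51, SE 0.37, adjusted p = 0.562).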
